A study of Homo sapiens with 11 samples.

Results

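The subunits of the respiratory chain and ATP synthase were taken by gene symbol from the 58037 gene rows of the deposited count table. They were the 13 protein genes of the mitochondrial genome and 90 nuclear genes, 103 in all. The nuclear set held 38 complex I, 4 complex II, 10 complex III, 19 complex IV and 19 ATP synthase (complex V) genes. NDUFA4 and NDUFA4L2 were placed with complex IV, where the NDUFA4 protein is now assigned. Assembly factors were not members. Of the 103 genes, 98 passed the filter on low counts, all 13 mitochondrial and 85 nuclear. The 5 others were COX4I2 (1 count over all libraries), COX6A2 (2 counts), COX7B2 (0 counts), NDUFC2-KCTD14 (0 counts) and ATP5MF-PTCD1 (13 counts), which are tissue isoforms or readthrough genes.

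The data are paired-end RNA-seq of 11 libraries of human acute myeloid leukaemia (AML) cells. OCI-AML3 is an established line, and OCI-AML3-FLT3-ITD carries, per its label, the internal tandem duplication that keeps the growth factor receptor FLT3 active. FHD-286 is an inhibitor of the ATPases that drive BAF chromatin remodellers, BRG1 and BRM. The groups were OCI-AML3-FLT3-ITD with 100 nM FHD-286 for 16 h (n = 2), OCI-AML3-FLT3-ITD control (n = 3), OCI-AML3 with 100 nM FHD-286 for 16 h (n = 3) and OCI-AML3 control (n = 3). The labels do not say whether controls received a vehicle, how the duplication was introduced, whether the line is 1 clone, or whether replicates were separate cultures, so the p-values rest on a spread between libraries that may be technical.

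Oxidative phosphorylation passes electrons from NADH (complex I) or succinate (complex II) through coenzyme Q, complex III, cytochrome c and complex IV to oxygen, and the proton gradient so built drives ATP synthase. Its catalytic and proton-moving core is built from gene products of both genomes, except complex II, which is wholly nuclear. Mitochondrial genes are transcribed as long polycistronic RNAs by a dedicated polymerase inside the organelle. The nuclear genes are transcribed by RNA polymerase II, and their promoters are known for sites of NRF1, of ETS factors such as GABPA, and of YY1. AML cells are known for their reliance on oxidative phosphorylation.

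Total counts were between 58397190 and 79172389 per library, where 3 counts equal 0.0366 to 0.0548 CPM (counts scaled to a common library size with TMM factors), a floor that covers counting error only. One library, labelled FLT3-ITD control replicate 2, departed from its label. FLT3 was at 53.3 CPM in it, against 178 and 203 CPM in the other FLT3-ITD controls and 41.1 to 43.3 CPM in OCI-AML3 controls. Its log CPM correlated with OCI-AML3 controls at 0.979 to 0.984 and with the other FLT3-ITD controls at 0.957 to 0.960. Results that rest on it are given with and without it. Summed levels of 8 myeloid genes were 726 to 745 CPM in treated and 1462 to 1816 CPM in control FLT3-ITD libraries, and 1001 to 1063 CPM in treated and 1597 to 1655 CPM in control OCI-AML3 libraries. These genes went both ways: 6 fell and 2 rose (PTPRC and ANPEP) in OCI-AML3, and 6 fell and 1 rose (ANPEP) in the FLT3-ITD line. All 8 were detected in every group. PECAM1, listed as an endothelial marker, fell in the FLT3-ITD line, with group means of 4.79 CPM in treated and 16.7 CPM in control libraries. Its log2 fold change there was -1.80 with all libraries and -1.13 without control replicate 2, and it passed as lower in both. Markers of lymphoid cells summed to at most 1.52 CPM. Whether myeloid state plays a part in the changes below was not tested, and fewer transcribing cells and less RNA per cell cannot be told apart in bulk RNA.

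The promoters of 5 nuclear members are shown because, in each complex, they belong to the member with the smallest p among those that fell in OCI-AML3, and all 5 fell in both lines. The sequences are from RefSeq (GRCh38.p14), 5′ to 3′ on the gene's strand, from 250 bases before the annotated start to 50 after it. They lie at chr9:122159730-122160029 (-), chr1:17053983-17054282 (-), chr5:132866392-132866691 (+), chr15:74938024-74938323 (-) and chr17:48892537-48892836 (+), in that order. Capitals mark exact matches on either strand to TGCGCATG (NRF1), CCGGAAG (ETS), AAGATGG (YY1) and CACGTG (E-box).
NDUFA8: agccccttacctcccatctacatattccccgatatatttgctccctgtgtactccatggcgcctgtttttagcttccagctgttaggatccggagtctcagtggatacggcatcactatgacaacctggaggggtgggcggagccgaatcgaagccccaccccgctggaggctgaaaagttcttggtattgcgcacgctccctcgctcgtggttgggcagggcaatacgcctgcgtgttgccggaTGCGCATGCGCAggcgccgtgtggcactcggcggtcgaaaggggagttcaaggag
SDHB: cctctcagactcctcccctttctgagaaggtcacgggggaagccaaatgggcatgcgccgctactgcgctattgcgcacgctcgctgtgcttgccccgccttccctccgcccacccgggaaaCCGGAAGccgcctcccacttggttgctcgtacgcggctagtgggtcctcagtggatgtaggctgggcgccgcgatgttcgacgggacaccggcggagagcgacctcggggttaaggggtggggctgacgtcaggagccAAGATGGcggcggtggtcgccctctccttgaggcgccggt
UQCRQ: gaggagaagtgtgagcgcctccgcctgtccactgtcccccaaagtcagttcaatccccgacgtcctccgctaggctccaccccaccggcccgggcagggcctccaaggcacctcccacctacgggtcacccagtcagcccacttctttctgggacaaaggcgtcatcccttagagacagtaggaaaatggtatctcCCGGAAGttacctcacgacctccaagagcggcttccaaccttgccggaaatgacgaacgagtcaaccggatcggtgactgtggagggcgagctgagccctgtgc
COX5A: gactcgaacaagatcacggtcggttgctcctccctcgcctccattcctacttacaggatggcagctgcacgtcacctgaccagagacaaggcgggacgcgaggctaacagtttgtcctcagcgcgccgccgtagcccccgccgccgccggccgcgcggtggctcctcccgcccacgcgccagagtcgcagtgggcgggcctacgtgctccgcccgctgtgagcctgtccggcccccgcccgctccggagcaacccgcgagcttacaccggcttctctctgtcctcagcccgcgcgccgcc
ATP5MC1: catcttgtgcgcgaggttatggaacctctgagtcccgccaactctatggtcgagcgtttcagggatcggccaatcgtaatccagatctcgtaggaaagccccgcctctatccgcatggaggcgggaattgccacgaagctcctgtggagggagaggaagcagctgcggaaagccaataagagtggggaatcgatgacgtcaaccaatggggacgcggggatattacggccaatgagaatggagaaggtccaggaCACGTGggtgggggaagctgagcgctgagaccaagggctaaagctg

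In NDUFA8 a pair of overlapping NRF1 matches, 1 on each strand, lay across the annotated start. SDHB held an ETS match 128 bases before the start and a YY1 match 10 bases after it. UQCRQ had an ETS match 54 bases before the start, ATP5MC1 an E-box 4 bases after it, and COX5A none of these letters. RefSeq promoters were matched for 70 of the 90 nuclear members, and NDUFB5 was not among them. Of the 70, 11.4% held the NRF1 letters, 28.6% the ETS letters and 22.9% the YY1 letters, against 2.18%, 10.3% and 5.84% of 35116 promoters of the same length. The E-box was in 7 of the 70 and in 7.26% of all. The 2 sets are unlike: members are protein-coding with 1 promoter each, and the 35116 were not limited in either way. These are matches of letters and say nothing of binding.

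The 13 mitochondrial messenger RNAs made up 4.23% and 3.995% of all counts in treated FLT3-ITD libraries, against 3.98%, 7.01% and 3.64% in controls. They made up 5.11%, 5.14% and 6.09% in treated OCI-AML3 libraries, against 4.504%, 4.94% and 4.14% in controls. In OCI-AML3 every treated library lay above every control by this share. The value of 7.01% in the FLT3-ITD controls belonged to replicate 2, which on this measure lay above the libraries of both lines. On TMM-scaled totals the OCI-AML3 sums overlapped, at 49350, 49240 and 59160 CPM in treated and 48040, 51810 and 45970 CPM in control libraries. The 90 nuclear genes together made up 0.907% and 0.934% in treated FLT3-ITD libraries, against 1.03%, 0.876% and 0.908% in controls. In OCI-AML3 they were 0.987%, 0.966% and 0.956% of treated and 1.06%, 1.01% and 1.07% of control counts, again without overlap by share but downwards.

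The mitochondrial over nuclear count ratio does not depend on the scaling of libraries. It was 5.18, 5.32 and 6.37 in treated OCI-AML3 libraries, against 4.26, 4.88 and 3.87 in controls. The FLT3-ITD line had a ratio of 4.67 and 4.28 with FHD-286, against 3.86, 7.998 and 4.01 in controls. The treated libraries of OCI-AML3 were all above their controls, and those of the FLT3-ITD line were above control replicates 1 and 3 and below replicate 2. With 3 libraries against 3 an exact permutation test cannot give a two-sided p under 0.10, so these ranges are given as a description. Per kb of exon, the median member level over all libraries was 2766 CPM among mitochondrial and 25.6 CPM among nuclear genes, a ratio of 108. Mitochondrial levels per kb ran from 1231 CPM for MT-ND6, the subunit gene on the light strand, to 8206 CPM for MT-CO3, and nuclear ones from 0 CPM to 520.5 CPM for ATP5F1B, the catalytic beta subunit of ATP synthase.

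**Figure D1:**
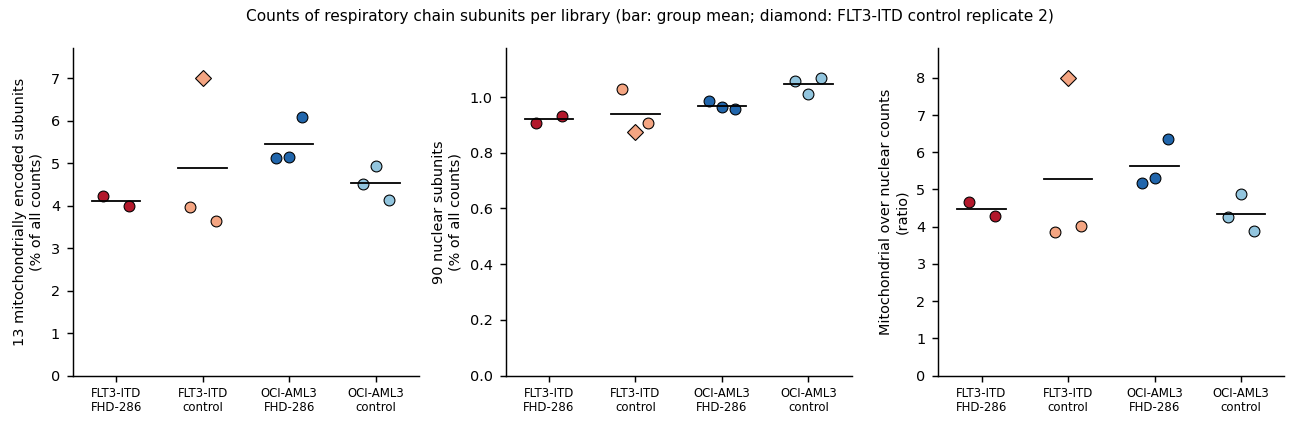
Share of all counts from the 13 mitochondrially encoded subunits (left, percent), from the 90 nuclear subunits (middle, percent), and the ratio of the mitochondrial to the nuclear count (right) in each library, by group, with bars at group means. Treated OCI-AML3 libraries lie above their controls for the ratio (5.18 to 6.37 against 3.87 to 4.88), and the diamond, FLT3-ITD control replicate 2, stands at 7.998.

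The first comparison asked what FHD-286 did in OCI-AML3. Nuclear subunit messages moved mostly down, by small amounts, while mitochondrial ones did not. By edgeR's quasi-likelihood test at an adjusted p under 0.05, 38 of 85 nuclear members (44.7%) fell and 1 rose (1.18%), against 21.5% of all genes lower and 19.8% higher. The median log2 fold change was -0.22 over the nuclear members, 0.11 over the 13 mitochondrial genes and 0.01 over all 18908 genes tested. None of the 13 mitochondrial genes passed in either direction, 0 did at an unadjusted p under 0.05, and DESeq2 called 0. With library totals in place of TMM factors the median of all genes moved to 0.17, that of nuclear members to -0.07 and that of mitochondrial genes to 0.26, so nuclear members stayed below and mitochondrial genes above the median gene, but the count became 19 lower and 5 higher. Leaving out OCI-AML3 control replicate 1 gave 23 lower, control replicate 3 gave 21, and FHD-286 replicates 2 and 3 gave 22 and 21. For library totals and these omissions the share of all genes called was not worked out. It is therefore unknown whether these shifts are particular to the members. Without FLT3-ITD control replicate 2, which enters through the shared estimate of spread, 51 nuclear members fell and 4 rose, against 29.8% and 29% of all genes.

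Complex I, which oxidises NADH, had 8 of 37 tested nuclear members lower (21.6%), a share like that of all genes, and 1 higher. Leaving out FLT3-ITD control replicate 2 gave 18 lower and 4 higher. NDUFA8, an accessory subunit with twin CX9C motifs, was at 59.1, 57.97 and 56.7 CPM in treated OCI-AML3 libraries and 109, 103 and 117 CPM in controls. The groups were well apart, and NDUFA8 fell by 0.92 on the log2 scale (SE 0.08, edgeR adjusted p = 1.41e-05). NDUFS5 was lower by a log2 fold change of -0.60 (SE 0.11) and NDUFB2 by -0.47 (SE 0.09), both accessory subunits. For NDUFB2, 35.9% of the exon length overlaps other genes. The single rise among nuclear members was NDUFB5, an accessory subunit of the membrane arm, at 116, 119 and 119 CPM with FHD-286 and 82.0, 78.1 and 85.1 CPM in controls (log2 fold change 0.53, SE 0.07, edgeR adjusted p = 0.000175). All treated values of NDUFB5 lay above all control values. NDUFS1, a core subunit outside the naming rule that was looked at after its values were seen, had a log2 fold change of -0.0029 (SE 0.06) and did not pass.

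Complex II, succinate dehydrogenase, was split. SDHB, the iron-sulfur subunit, was at 105, 106 and 103 CPM in treated OCI-AML3 libraries and 157, 147 and 160 CPM in controls (log2 fold change -0.56, SE 0.09, edgeR adjusted p = 0.000495). SDHA, the flavoprotein, was at 315, 309 and 306 CPM with FHD-286 and 395, 379 and 435 CPM in controls (log2 fold change -0.38, SE 0.09, edgeR adjusted p = 0.00513). For both genes of the catalytic head the groups did not overlap. The membrane anchors had log2 fold changes of 0.04 for SDHC (SE 0.06) and -0.07 for SDHD (SE 0.07), and neither passed.

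In complex III, which passes electrons from coenzyme Q to cytochrome c, 7 of 10 nuclear members fell. UQCRQ, a small subunit, was at 31.4, 27.4 and 29.7 CPM in treated OCI-AML3 libraries and 48.7, 46.9 and 49.8 CPM in controls (log2 fold change -0.72, SE 0.11, edgeR adjusted p = 0.000449). UQCRC1, a core protein, had a log2 fold change of -0.38 (SE 0.08) and UQCRH, the hinge protein, one of -0.28 (SE 0.08). UQCRHL, a near-identical copy of UQCRH, gave -0.30 (SE 0.09), and reads may be split between these copies by the counting. UQCRQ shares 20.8% of its exon length with GDF9, which had 198 counts in all against 27084 for UQCRQ.

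Complex IV, cytochrome c oxidase, had 8 of 16 tested nuclear members lower and none higher. COX5A was at 119, 114 and 112 CPM in treated OCI-AML3 libraries and 189, 176 and 208 CPM in controls (log2 fold change -0.73, SE 0.09, edgeR adjusted p = 0.000125), without overlap. COX7B had a log2 fold change of -0.49 (SE 0.11) and COX4I1, the common isoform of subunit 4, one of -0.32 (SE 0.09). NDUFA4L2, known for its induction in hypoxia, was at 0.362, 0.376 and 0.441 CPM with FHD-286 and 0.932, 0.937 and 0.898 CPM in controls (log2 fold change -1.23, SE 0.45, edgeR adjusted p = 0.0476). Its common counterpart NDUFA4, at 87.0 to 93.2 CPM with FHD-286 and 89.6 to 94.6 CPM in controls, had a log2 fold change of -0.04 (SE 0.09).

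ATP synthase had 13 of 18 tested nuclear members lower, the largest share of any complex in this comparison at 72.2%, and none higher. ATP5MC1 is 1 of the genes, with ATP5MC2 and ATP5MC3, whose mature product is the identical subunit c of the rotor ring. It was at 53.7, 52.1 and 53.6 CPM in treated OCI-AML3 libraries and 116, 106 and 125 CPM in controls. This difference, a log2 fold change of -1.12 (SE 0.12, edgeR adjusted p = 3.5e-05), left a wide gap between the groups. ATP5MC3 had a log2 fold change of -0.48 (SE 0.09), and ATP5MC2, added after its values were seen, one of -0.21 (SE 0.10, edgeR adjusted p = 0.104), which did not pass. ATP5MF, a subunit of the membrane part, had -0.47 (SE 0.09).

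**Figure D2:**
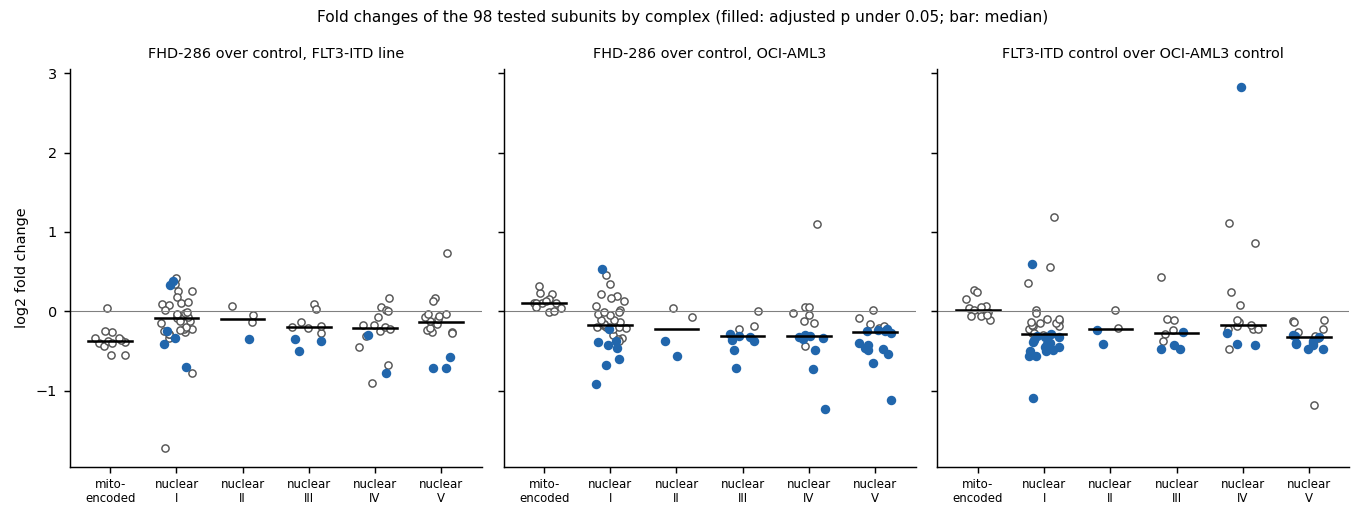
Log2 fold change of each tested subunit in 3 comparisons, with the 13 mitochondrially encoded genes first and the 85 nuclear genes by complex. Filled points passed an adjusted p under 0.05 and bars are medians. In OCI-AML3 most filled points lie below 0 and none is mitochondrial.

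The same treatment in the FLT3-ITD line gave fewer calls. Of 85 nuclear members 13 fell (15.3%) and 2 rose (2.35%), against 14.9% of all genes lower and 15.6% higher, so the share that fell was near the background. The median was -0.15 over nuclear members and -0.02 over all genes. Without control replicate 2 the count was 32 lower (37.6%) and 5 higher, against 24.2% and 24.8% of all genes, and the nuclear median was -0.18. Leaving out FHD-286 replicate 1 left 3 lower and 0 higher, FHD-286 replicate 2 left 6 lower, control replicate 3 gave 25 lower and 1 higher, and control replicate 1 gave 6 higher. With library totals, under which the median of all genes moved to 0.09 and that of nuclear members to -0.04, 10 fell and 9 rose. By complex, the full set gave 4 of 37 lower in complex I, 1 of 4 in II, 3 of 10 in III, 2 of 16 in IV and 3 of 18 in V. Without control replicate 2 these were 11, 2, 5, 7 and 7. Fitting only the treated and control FLT3-ITD libraries left 3 lower and 0 higher. The share of all genes called was not worked out for this fit, for library totals or for the omissions other than control replicate 2.

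COX5A was at 79.1 and 87.6 CPM in treated FLT3-ITD libraries and 161, 136 and 131 CPM in controls (log2 fold change -0.77, SE 0.10, edgeR adjusted p = 0.000362). NDUFA8 was at 48.5 and 50.5 CPM with FHD-286 and 89.1, 79.4 and 72.1 CPM in controls (log2 fold change -0.70, SE 0.09, edgeR adjusted p = 0.000362). ATP5MC1 was at 49.2 and 52.2 CPM with FHD-286 and 101, 72.1 and 76.8 CPM in controls (log2 fold change -0.72, SE 0.13, edgeR adjusted p = 0.00241). For these 3 genes both treated libraries lay below all controls, replicate 2 included. SDHB had a log2 fold change of -0.35 (SE 0.10), UQCRQ one of -0.50 (SE 0.12), UQCRC1 one of -0.35 (SE 0.09), CYC1, cytochrome c1, one of -0.37 (SE 0.12), COX4I1 one of -0.29 (SE 0.10) and ATP5F1D, the delta subunit, one of -0.57 (SE 0.15). NDUFV1, the flavoprotein that binds NADH, had -0.34 (SE 0.08), and NDUFB9 -0.42 (SE 0.11). ATP5ME, at -0.71 (SE 0.15), shares 61.6% of its exon length with MYL5, so its reads cannot be told apart from that gene's. NDUFB5 was again higher, at 100 and 92.8 CPM with FHD-286 and 83.2, 72.1 and 74.3 CPM in controls (log2 fold change 0.33, SE 0.08, edgeR adjusted p = 0.00855). The other rise was NDUFA12, with a log2 fold change of 0.38 (SE 0.12).

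The lines have separate controls in these comparisons. Of the nuclear members that fell, 12 were shared, which is 31.6% of the 38 in OCI-AML3 and 92.3% of the 13 in the FLT3-ITD line, and NDUFB9 alone fell only by the FLT3-ITD test. Over all genes that fell, the shared ones were 51.1% of those in OCI-AML3 and 74% of those in the FLT3-ITD line. Without FLT3-ITD control replicate 2, 31 members were shared, which is 60.8% of 51 and 96.9% of 32, beside 64.6% and 79.5% over all genes. No member passed in opposite directions. The difference between the effects, FLT3-ITD minus OCI-AML3, passed for none of the 98 members by edgeR's adjusted p, against 1.98% of all genes higher and 1.38% lower, while 5 nuclear members were higher and 0 lower at an unadjusted p under 0.05, and DESeq2 called 0. Leaving out FLT3-ITD control replicate 1 gave 6 nuclear members higher, in a fit whose share over all genes was not worked out. Without FLT3-ITD control replicate 2 it again passed for none by edgeR's adjusted p, against 9.63% of all genes higher and 7.39% lower by the same rule. At an unadjusted p under 0.05, 7 nuclear members were then higher and 3 lower. A difference that misses the threshold does not show that the effects were alike. The log2 difference was 0.22 (SE 0.12) for NDUFA8, 0.40 (SE 0.17) for ATP5MC1 and -0.04 (SE 0.14) for COX5A.

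**Figure D3:**
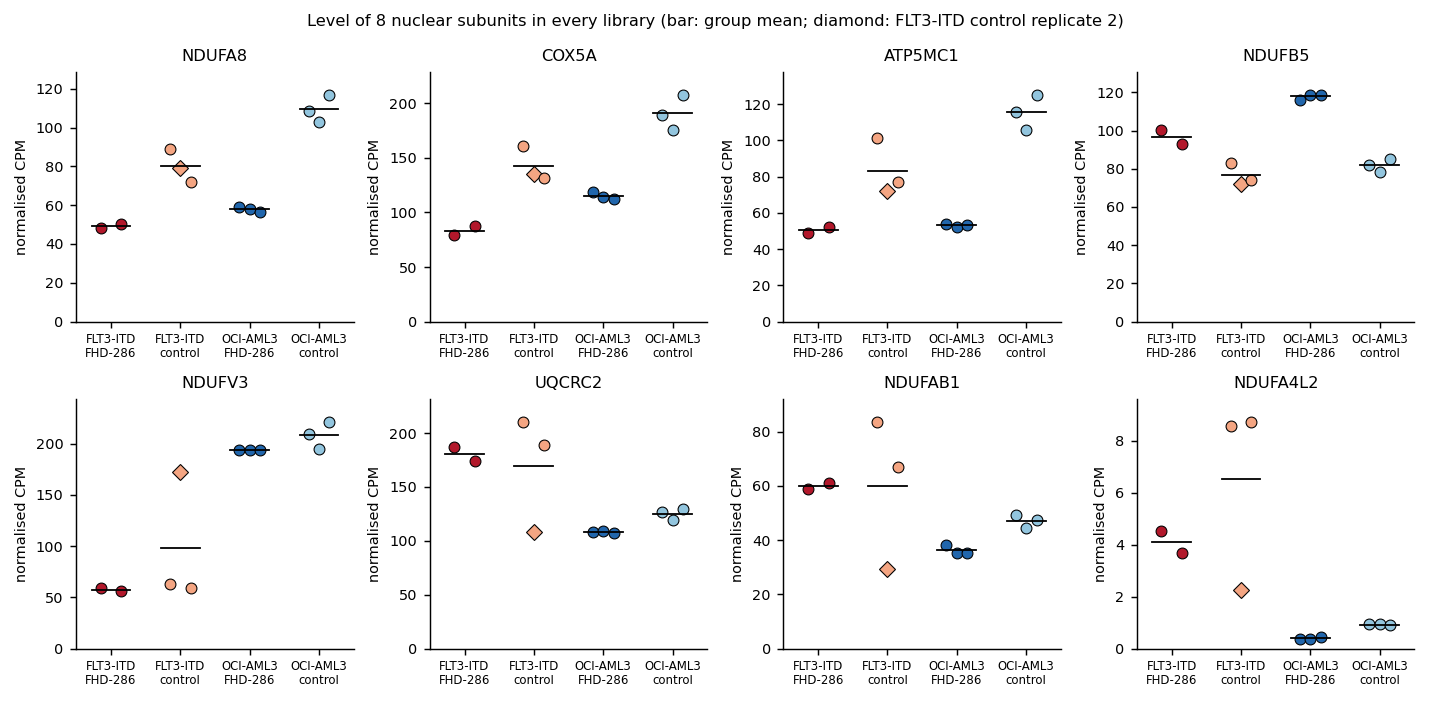
Normalised CPM of 8 nuclear subunits in every library, by group, with bars at group means and a diamond for FLT3-ITD control replicate 2. NDUFA8, COX5A and ATP5MC1 are lower and NDUFB5 is higher with FHD-286 in both lines. For NDUFV3, UQCRC2, NDUFAB1 and NDUFA4L2 the lines differ, and the diamond sits apart from the other FLT3-ITD controls.

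Among the mitochondrial genes, levels in the FLT3-ITD line depended on control replicate 2. With all libraries the median log2 fold change of FHD-286 was -0.38 over the 13 genes, and without that replicate it was 0.01. No gene passed in either case by edgeR's adjusted p, at an unadjusted p under 0.05 the counts were 0 with all libraries and 1 higher and 0 lower without, and DESeq2 called 0 with all libraries. In OCI-AML3 none passed with all libraries. Without that replicate 29% of all genes were higher, and of the 13 mitochondrial genes 3 rose (23.1%). These 3 were MT-CYB (log2 fold change 0.32, SE 0.08, edgeR adjusted p = 0.00189), MT-ND5 (0.24, SE 0.08, edgeR adjusted p = 0.0115) and MT-ND6 (0.22, SE 0.08, edgeR adjusted p = 0.0323). MT-CYB encodes cytochrome b of complex III, and MT-ND5 and MT-ND6 encode membrane subunits of complex I. The other 10 had log2 fold changes in OCI-AML3 between -0.01 for MT-ND4L and 0.16 for MT-ND1 in that fit.

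The share of each gene within the 13 mitochondrial messages is independent of library scaling and of the nuclear genes. MT-CYB took 5.90%, 5.78% and 5.85% of them in treated OCI-AML3 libraries, against 5.11%, 5.02% and 5.07% in controls. It took 6.37% and 6.23% in treated FLT3-ITD libraries, against 5.39%, 4.25% and 5.28% in controls. In both lines all treated libraries lay above all controls, with or without replicate 2, whose 4.25% was the lowest of the 11. MT-ND4, which encodes another membrane subunit of complex I, took 14.5%, 14.2% and 14.5% in treated OCI-AML3 libraries, against 15.5%, 15.3% and 15.9% in controls. The count of MT-CYB over that of MT-ND4 was 0.408, 0.408 and 0.404 with FHD-286 and 0.329, 0.329 and 0.320 in controls of OCI-AML3. In the FLT3-ITD line it was 0.403 and 0.428 with FHD-286 and 0.336, 0.280 and 0.333 in controls. This pair was chosen after the shares were seen, so the gap in OCI-AML3 is no separate result.

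In OCI-AML3 4 of the 13 shares were above the control range (MT-ND1, MT-ND5, MT-ND6 and MT-CYB), 3 below it (MT-ND4, MT-ND4L and MT-CO2) and 6 overlapped it. MT-ND5, MT-ND6 and MT-CYB are neighbours on the mitochondrial genome (GRCh38 chrM, 12337 to 15887), and MT-ND4L and MT-ND4 precede them. MT-ND6 is read from the other strand, and the strand setting of the counts is not given in the sources used here. In the FLT3-ITD line 2 shares were above (MT-CYB and MT-ATP6) and 1 below (MT-ND2), and without replicate 2 also MT-ND5 was above and MT-ND4 below. Shares are given as a description, since an exact permutation test on so few libraries cannot pass 0.05.

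**Figure D4:**
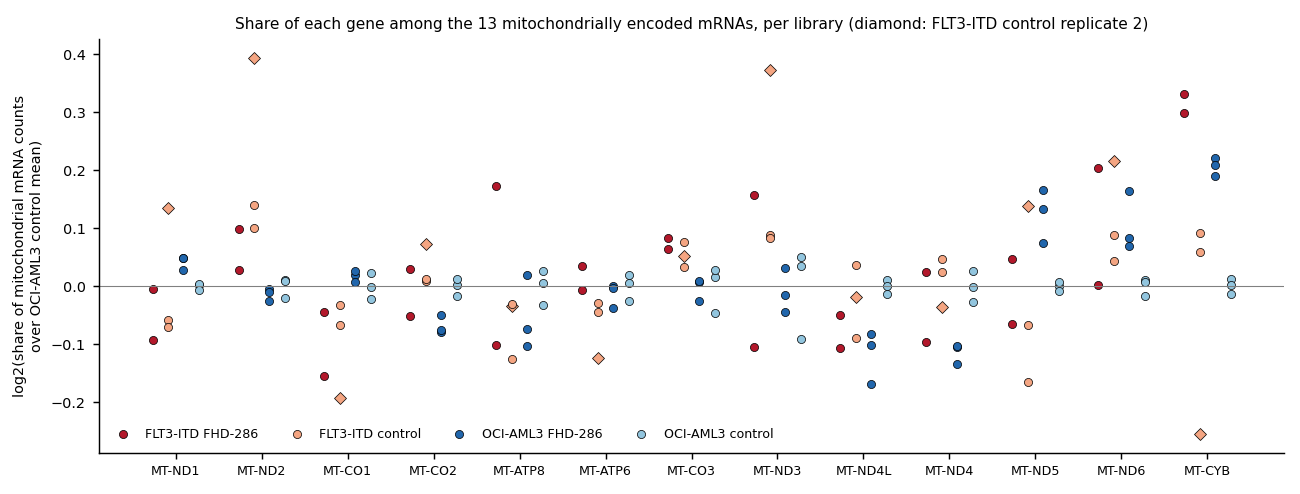
Share of each gene among the 13 mitochondrially encoded messages in each library, as log2 over the OCI-AML3 control mean, with genes in their order along the mitochondrial genome. MT-CYB is above control in all 5 treated libraries, and the diamond, FLT3-ITD control replicate 2, is the lowest for MT-CYB and the highest for MT-ND2 and MT-ND3.

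Without drug, the FLT3-ITD line carried lower nuclear subunit levels than OCI-AML3. This comparison shares its controls with those above. Of 85 nuclear members 36 were lower (42.4%) and 2 higher (2.35%), against 13.5% of all genes lower and 14.5% higher, with a nuclear median of -0.28 and a median of 0.01 over all genes. Leaving out OCI-AML3 control replicate 1 gave 18 lower, OCI-AML3 control replicate 3 gave 17 and FLT3-ITD control replicate 3 gave 21. Fitting only the control libraries of both lines left 5 lower and 1 higher. For this fit and these omissions the share of all genes called was not worked out. Without FLT3-ITD control replicate 2 the count was 44 lower and 5 higher, against 25.4% and 24.1%. The call was spread over 17 of 37 members in complex I, 2 of 4 in II, 4 of 10 in III, 3 of 16 in IV and 10 of 18 in V. NDUFB10 was at 140, 109 and 111 CPM in FLT3-ITD controls and 182, 165 and 186 CPM in OCI-AML3 controls (log2 fold change -0.56, SE 0.09, edgeR adjusted p = 0.00257). For NDUFB10 replicates 2 and 3 were alike, and the groups did not overlap. ATP5PD, of the peripheral stalk, had a log2 fold change of -0.48 (SE 0.08), UQCRFS1, the Rieske protein, one of -0.47, NDUFA4 one of -0.42 (SE 0.09) and SDHC one of -0.41 (SE 0.06). The lower members also held NDUFA8 at -0.45, COX5A at -0.42 and ATP5MC1 at -0.47, genes that FHD-286 lowered in both lines. SDHA had 0.01 (SE 0.09), SDHB -0.21 (SE 0.09) and SDHD -0.24 (SE 0.07), and of these SDHD passed. The higher members were NDUFA4L2 and NDUFA13, the last at 1.37 to 1.90 CPM in FLT3-ITD controls and 1.01 to 1.17 CPM in OCI-AML3 controls. NDUFA13 shares 20.97% of its exon length with AC011448.1 and YJEFN3. Over all libraries these had 341 and 3179 counts, against 1123 for NDUFA13, so its reads may not be its own.

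A few members, all but NDUFA4L2 chosen after their values were seen, differed more between the lines, and in each the level in replicate 2 lay apart from the other FLT3-ITD controls. NDUFV3 (GRCh38 chr21, 42879644 to 42913304), an accessory subunit of the NADH-binding module, was at 63.0, 173 and 58.7 CPM in FLT3-ITD controls and 210, 194 and 221 CPM in OCI-AML3 controls. In treated libraries it was at 58.8 and 55.9 CPM in the FLT3-ITD line and 193, 194 and 193 CPM in OCI-AML3, and FHD-286 passed in neither, with log2 fold changes of -0.77 (SE 0.38) and -0.11 (SE 0.33). Without replicate 2 the first of these was -0.09 (SE 0.07). The log2 fold change between controls was -1.09 (SE 0.33, edgeR adjusted p = 0.0333) with all libraries and -1.78 (SE 0.07, edgeR adjusted p = 1.5e-14) without replicate 2. NDUFA4L2 (chr12, 57234903 to 57240715) was at 8.58, 2.24 and 8.74 CPM in FLT3-ITD controls and 0.932, 0.937 and 0.898 CPM in OCI-AML3 controls (log2 fold change 2.82, SE 0.43, edgeR adjusted p = 0.00162). It was at 4.53 and 3.67 CPM in treated FLT3-ITD libraries, and without replicate 2 its fall with FHD-286 there passed, with a log2 fold change of -1.08 (SE 0.13, edgeR adjusted p = 8.89e-07), against -0.67 (SE 0.44) with it.

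UQCRC2, a core protein of complex III, was at 211, 108 and 189 CPM in FLT3-ITD controls and 127, 119 and 130 CPM in OCI-AML3 controls. NDUFAB1, the acyl carrier protein that is also a complex I subunit, was at 83.8, 29.5 and 66.9 CPM in FLT3-ITD controls and 49.3, 44.3 and 47.3 CPM in OCI-AML3 controls. Neither passed with all libraries, and without replicate 2 both were higher, with log2 fold changes of 0.67 (SE 0.07, edgeR adjusted p = 2.81e-08) and 0.68 (SE 0.08, edgeR adjusted p = 5.13e-07). They lie within 1.64 Mb on chromosome 16 (GRCh38, 21952660 to 23596356). All 14 other tested genes between them had a positive log2 fold change between the controls, with a median of 0.69 with all libraries, and 6 passed as higher and 0 as lower. This interval was looked at after these values were seen. In this comparison with all libraries, 9678 of 18908 genes were positive, and 14.5% passed as higher and 13.5% as lower. The interval was not worked out without replicate 2.

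**Figure D5:**
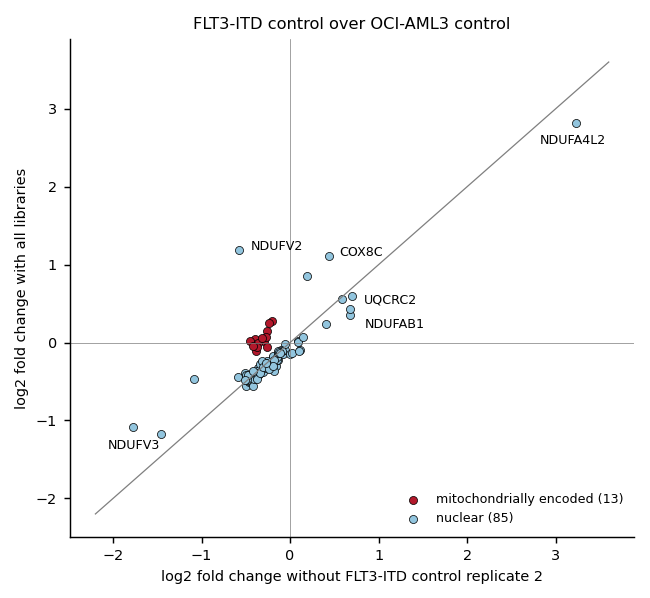
Log2 fold change of FLT3-ITD control over OCI-AML3 control for the 98 tested subunits, without (x) and with (y) FLT3-ITD control replicate 2, with the line of equality. The 13 mitochondrially encoded genes lie left of 0 without that library and between -0.10 and 0.27 with it.

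No mitochondrial gene passed between the controls with all libraries by edgeR or DESeq2, and 0 did at an unadjusted p under 0.05 (median 0.02), and without replicate 2 all 13 had negative log2 fold changes, of which 12 passed (median -0.32). MT-CO1, the catalytic subunit of complex IV, was at 9426, 14660 and 8419 CPM in FLT3-ITD controls and 11330, 12610 and 11000 CPM in OCI-AML3 controls. MT-ND2 was the exception, at -0.21 (SE 0.09, edgeR adjusted p = 0.0568).

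Other mitochondrial genes were taken from lists of roles. The counts below stand beside 21.5% of all genes lower and 19.8% higher in OCI-AML3, and 14.9% lower and 15.6% higher in the FLT3-ITD line. These shares were 29.8% and 29% in OCI-AML3 and 24.2% and 24.8% in the FLT3-ITD line without FLT3-ITD control replicate 2. Of the complex I assembly factors 12 of 15 fell in OCI-AML3 and 0 rose. The counts were 5 of 10 lower for complexes II and III, 6 of 22 lower and 1 higher for complex IV, and 2 of 5 lower for ATP synthase, and without FLT3-ITD control replicate 2 the complex IV list had 12 lower. NDUFAF2, a complex I assembly factor, had a log2 fold change of -0.82 (SE 0.08), BCS1L, the chaperone that inserts the Rieske protein into complex III, -0.77 (SE 0.10), and SCO1, a copper chaperone of complex IV, -0.59 (SE 0.06). In the FLT3-ITD line 5 of 15, 4 of 10, 7 of 22 and 0 of 5 were lower in the same order, with none higher, and without control replicate 2 these were 12, 5, 9 and 1.

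Genes that act on mitochondrial DNA and RNA fell in part, beside mitochondrial messages of which none passed with all libraries. In OCI-AML3, 7 of 15 genes of mitochondrial DNA maintenance and transcription and 12 of 16 of mitochondrial RNA processing and stability fell, with none higher. TWNK, the mitochondrial DNA helicase, was at 49.7, 49.7 and 45.4 CPM with FHD-286 and 104, 101 and 115 CPM in controls (log2 fold change -1.14, SE 0.13, edgeR adjusted p = 5.27e-05). SLIRP, which with LRPPRC stabilises mitochondrial messages, was at 28.2, 28.8 and 29.1 CPM with FHD-286 and 59.9, 59.9 and 58.9 CPM in controls (log2 fold change -1.05, SE 0.10, edgeR adjusted p = 1.8e-05). LRPPRC had a log2 fold change of -0.55 (SE 0.06) in OCI-AML3 and -0.49 (SE 0.07) in the FLT3-ITD line. Of the same lists 4 of 15 and 8 of 16 fell in the FLT3-ITD line, with 1 higher in each. Without FLT3-ITD control replicate 2 these were 5 of 15 and 12 of 16, again with 1 higher in each. In OCI-AML3 10 of 15 then fell with 1 higher, and 13 of 16 fell with 0 higher. Translation factors had 5 of 10 lower in OCI-AML3, TUFM among them at -0.74 (SE 0.08), and 2 of 10 in the FLT3-ITD line, or 5 of 10 there without control replicate 2.

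Of 8 tested coactivators and transcription factors of respiratory genes, 4 fell and 1 rose in OCI-AML3. PPRC1, a coactivator of the PGC-1 family, was at 113, 116 and 110 CPM with FHD-286 and 184, 191 and 204 CPM in controls (log2 fold change -0.77, SE 0.07, edgeR adjusted p = 1.77e-05). ESRRA, an orphan nuclear receptor, had -0.74 (SE 0.17), and GABPA, the ETS subunit of NRF-2, was higher at 0.29 (SE 0.10). In the FLT3-ITD line 3 fell and 1 rose, PPRC1 at -0.39 (SE 0.08) and GABPA at 0.44 (SE 0.11). In OCI-AML3 members with an ETS match fell in 13 of 20 tested (median -0.32), against 17 of 47 without one (median -0.22). For NRF1 the counts were 4 of 8 with and 26 of 59 without, for YY1 6 of 16 and 24 of 51, and for the E-box 4 of 7 and 26 of 60. None of these splits was tested. The share that fell among all genes with each match was not worked out, so no split can be called particular to the members.

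In the tricarboxylic acid cycle 10 of 14 genes fell in OCI-AML3 and 6 of 14 in the FLT3-ITD line, with none higher. Without FLT3-ITD control replicate 2, 11 fell and 1 rose in OCI-AML3 and 10 fell in the FLT3-ITD line. IDH2, the NADP-linked isocitrate dehydrogenase, was at 51.7 and 54.0 CPM in treated FLT3-ITD libraries and 174, 160 and 143 CPM in controls, and at 56.1, 57.4 and 54.6 CPM in treated OCI-AML3 libraries and 158, 147 and 171 CPM in controls. Its log2 fold changes were -1.59 (SE 0.10, edgeR adjusted p = 2.52e-06) and -1.501 (SE 0.08, edgeR adjusted p = 6.41e-07), larger in size than those of any subunit that passed in the FHD-286 comparisons. Cytochrome c and coenzyme Q synthesis had 6 of 14 lower and 2 higher in OCI-AML3 and 2 lower and 3 higher in the FLT3-ITD line, or 7 lower and 3 higher there without control replicate 2. CYCS, cytochrome c itself, was at 140, 160 and 150 CPM with FHD-286 and 250, 235 and 244 CPM in controls of OCI-AML3 (log2 fold change -0.70, SE 0.12). Of 7 genes linked to hypoxia-inducible factor, 3 fell in OCI-AML3 and 4 in the FLT3-ITD line, PDK1 and LONP1 among them in both. The OCI-AML3 count was 5 lower and 1 higher without FLT3-ITD control replicate 2. Of 24 mitochondrial ribosomal and transfer RNAs listed, 5 were tested, and MT-TP and MT-TC passed as lower in the FLT3-ITD line with all libraries. Their log2 fold changes were -0.96 (SE 0.21) and -1.38 (SE 0.44) there, against -0.21 (SE 0.19) and 0.07 (SE 0.38) in OCI-AML3. Without FLT3-ITD control replicate 2, 4 were tested, of which 1 was lower in the FLT3-ITD line and 1 in OCI-AML3.

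Many members share exons with other genes. Leaving out 11 tissue isoforms, copies and readthrough genes, the 31 nuclear members that share over 10% of exon length with another gene had a median level of 19.3 CPM per kb, and the 48 that share less had 45.1 CPM per kb. NDUFV2, a core subunit of complex I, had only 183 counts in all libraries together and NDUFA7 253, and both share over 10% of exon length with other genes. AP005263.1, which overlaps NDUFV2, had 0 counts, and the pseudogene copy of NDUFV2 had 779. RPS28, which overlaps NDUFA7, had 345341 counts. Why these 2 members had low counts was not tested. Of the 53 nuclear members sharing at most 10%, 27 fell and 1 rose in OCI-AML3, against 21.5% of all genes lower and 19.8% higher. In the FLT3-ITD line 9 of them fell and 2 rose, against 14.9% and 15.6% of all genes. Without FLT3-ITD control replicate 2, 36 fell and 2 rose in OCI-AML3, against 29.8% and 29% of all genes. The FLT3-ITD line then had 24 lower and 4 higher, against 24.2% and 24.8%. The tissue isoforms COX6B2, COX7A1 and COX8C did not pass in any comparison.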

How the data were processed

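Total RNA from 11 libraries was treated with DNase I and sequenced as paired ends, per the labels' protocols. For 58037 Ensembl identifiers the authors deposited counts as whole numbers with no normalisation. STAR and hg38 are named in the submitters' processing notes. How reads were counted (program, strand, annotation) is not given in the sources used here. Reads of overlapping, antisense and near-identical genes may be split or shared. Coordinates and exon lengths came from GENCODE 29 on GRCh38.

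Genes were kept with filterByExpr (minimum count 10, minimum total 15), which left 18908. TMM-scaled counts were fitted with edgeR 4.0.16 (R 4.3.3) by its quasi-likelihood test over all 4 groups, with 1 mean per group and 7 residual degrees of freedom. Contrasts compared FHD-286 with control within each line, these effects with each other, and control FLT3-ITD against control OCI-AML3. Tests were two-sided. P-values were adjusted by Benjamini-Hochberg across the 18908 genes, and 0.05 was the threshold. SE is the log2 fold change divided by the root of the F statistic, an approximation. The model was tested on simulated data. Alternatives included DESeq2 1.42.0, library totals, filters, a replicate block and leaving out each library. All genes of the set are described together, and genes of a list are not independent.

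The members, lists and rules were chosen with earlier results of these data known. Named were the 13 mitochondrial genes, SDHA to SDHD, tissue isoforms, and per comparison and complex the 3 called nuclear members with the smallest p in the majority direction and 1 in the other, with the same rule for lists. Other names fell outside this rule, and some are stated as chosen after their values were seen. Among those not so marked are NDUFA12, NDUFV2 and NDUFA7. The same holds for NDUFA8, COX5A and ATP5MC1 in the difference of effects, and for ATP5MC1 between the control lines. The analysis without FLT3-ITD control replicate 2 was planned as one of the omissions of a library, and its use throughout, the list counts without it, and the restriction by shared exons were chosen after seeing the data.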

Additional observations from a re-analysis of the deposited data

How the results depend on the processing

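Counts of calls moved with the libraries kept, with the groups fitted together and with the scaling. The share of all genes called was worked out only for the main fit and without FLT3-ITD control replicate 2. For the other settings it is unknown whether a shift is particular to the members. Leaving out each library in turn gave 21 to 51 nuclear members lower and 1 to 4 higher in OCI-AML3 with FHD-286, with 0 to 3 mitochondrial genes higher and a mitochondrial minus nuclear median of 0.24 to 0.41. In the FLT3-ITD line it gave 3 to 32 nuclear lower and 0 to 6 higher, 0 to 1 mitochondrial lower, and a median difference of -0.44 to 0.19. For the difference of effects it gave 0 to 6 nuclear higher and a median difference of -0.75 to -0.18, and between the control lines 17 to 51 nuclear lower, 1 to 5 higher, 0 to 12 mitochondrial lower and a median difference of -0.08 to 0.52. Where 1 treated FLT3-ITD library was left out, its partner was taken to vary as the other groups do.

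Between the control lines, the log2 fold changes over these omissions ran from -0.40 to 0.26 for MT-ND1, -0.24 to 0.47 for MT-ND3, -0.30 to 0.19 for MT-ND4, -0.45 to 0.23 for MT-ND5, -0.27 to 0.37 for MT-ND6, -0.32 to 0.25 for MT-CO2 and -0.28 to 0.26 for MT-CO3, the lowest being without FLT3-ITD control replicate 2. With library totals and without replicate 2 together, a setting added after seeing the data, they were -0.31 for MT-ND1, -0.37 for MT-ND5 and -0.24 for MT-CO2, and MT-ND5 with FHD-286 in the FLT3-ITD line turned to 0.22. In that setting 11 nuclear and 11 mitochondrial genes were higher in OCI-AML3, 11 nuclear and 2 mitochondrial genes were higher in the FLT3-ITD line with a median difference of 0.19, 2 nuclear members were lower for the difference of effects with a median difference of -0.18, and 9 nuclear were higher and 7 mitochondrial lower between control lines. With library totals alone, 5 nuclear rose, 19 fell and 1 mitochondrial gene rose in OCI-AML3, and 9 nuclear rose in the FLT3-ITD line. Upper-quartile factors and a stricter filter each gave 2 nuclear higher in OCI-AML3. Fitting only the groups compared gave 57 nuclear lower, 5 nuclear higher and 4 mitochondrial higher in OCI-AML3, 3 nuclear lower and 0 higher in the FLT3-ITD line, and 5 lower and 1 higher between control lines. These fits hold fewer samples, and the causes of the shifts were not tested.

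Deviations of same-numbered libraries from their group means correlated at -0.029 to 0.122, and only the pairs at 0.122 and 0.104 passed 0.1. With 2 or 3 libraries per group this cannot tell whether such libraries were paired, and the main fit had no block. With the replicate block, 34 nuclear members fell and 1 rose in OCI-AML3, 10 fell and 2 rose in the FLT3-ITD line, and 33 were lower and 1 higher between control lines. The tissue isoforms have few counts, and a change in them may not be detectable at this depth.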
